A study of Macaca mulatta with 12 samples.

Results

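All hormone implants were set against placebo in the dorsal raphe of female rhesus monkeys: 9 arrays from animals given an ovarian steroid against 3 arrays from animals given none, which together are all 12 arrays of the series. The hormone arrays were taken by their labels and fall into 3 regimens of 3 animals: estrogen, progesterone, and estrogen with progesterone. Each regimen counted the same in the mean. Silastic capsules with the steroid as crystals lay under the skin for 1 month, each array holds RNA of 1 animal, and the ages of the animals and the contents of the placebo implants are not given in the sources used here. OVX stands in each placebo title, taken to mean ovariectomized; the hormone labels do not state whether those animals had ovaries. For progesterone the title code is EP but the description P, and this group was treated as having had progesterone without estrogen. The tissue was a dissected block, so neurons, glia and vessels were measured together, and fewer cells of a type cannot be told apart from less RNA per cell.

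The dorsal raphe of the midbrain holds many of the serotonin neurons that project to the forebrain. Estrogen and progesterone act mainly through nuclear receptors that bind DNA and change transcription, and progesterone receptor is itself a classical target of estrogen in reproductive tissue. In this region both steroids have been studied for their effects on serotonin synthesis, on neuron survival and on dendritic spines. The question put to the arrays was which transcripts differed from placebo in the same direction under all 3 regimens.

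Median intensities ran from 79.2 to 82.8 on the placebo arrays and from 71.1 to 98.6 on the hormone arrays. The 3′ minus 5′ log2 signal of the EF1A control ran from -0.03 to 0.07 under placebo and from -0.37 to 0.74 under hormone, and that of the actin control from 0.11 to 0.63 and from 0.48 to 1.23. Placebo and hormone arrays overlapped in each, with the highest actin values under hormone, and the part of RNA quality in the differences was not tested. On the placebo, estrogen and combined sides the first arrays lay apart on the first principal component. They stood at -51.6, -44.9 and -44.0, the other 9 between -1.64 and 29.0, so 1 placebo array stands with 2 hormone arrays there. On the third component that placebo array lay at 49.9 and the 2 hormone arrays at -32.0 and -31.1, so the 3 were not alike. Among markers of the labelled tissue, TPH2, the enzyme that starts serotonin synthesis in the brain, was above the filter on dim probe sets with placebo values of 6.47, 7.44 and 7.80 (log2 intensity), and 7 of 11 markers of serotonin neurons were measured. The gene table used here names no probe set for SLC6A4, the serotonin transporter.

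No probe set passed the test of hormone against placebo. Limma called 0 of 26383 probe sets (0%) at a Benjamini-Hochberg adjusted p of 0.05, and the lowest adjusted p was 0.9999. An unadjusted p under 0.05 was reached by 1204 probe sets (4.56%), 723 higher (2.74%) and 481 lower (1.82%) under hormone. The precision was that of 12 animals: the 95% confidence interval of a log2 difference reached a median of 0.40 to each side. For 23771 probe sets, 90.1% of those tested, the interval taken singly lay wholly inside a log2 difference of 1 in either direction. Only 144 probe sets had an estimated difference beyond that size.

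A second description, which is not a test, asks that all 9 hormone arrays lie outside the range of the 3 placebo arrays on the same side. This held for 141 probe sets, 0.534% of those tested: 71 lay above (0.269%) and 70 below (0.265%). Of the 71 above, 32 carried the name of a gene, and of the 70 below, 44 did, for 43 genes since RHOQ was counted on 2 probe sets. The remainder had no name or a locus number. The median log2 difference was 0.53 above and -0.42 below, and 8 probe sets above and 0 below differed by at least 2-fold. An unadjusted limma p under 0.05 was reached by 63 of the 71 and 60 of the 70. With the arrays aligned on their medians instead of quantile normalized, 39 lay above and 86 below. In 11 of the 71 above, all 3 placebo arrays were under the filter on dim probe sets, so these passed through the hormone arrays, and in 0 of the 70 below were all 9 hormone arrays under it. The genes described next were chosen from the 141 by their limma p or by the size of the smallest regimen difference, so their p and the separation of their groups follow from that choice and are given as a description.

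**Figure D1:**
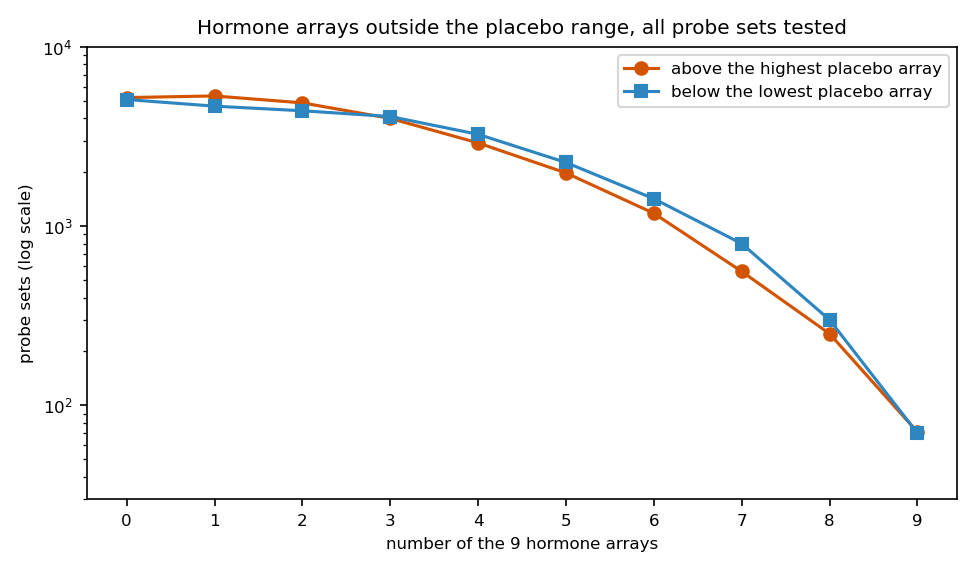
The horizontal axis gives the number of the 9 hormone arrays that lay above the highest placebo array (circles) or below the lowest (squares), and the vertical axis the number of probe sets on a log scale. The counts fall from 251 above and 300 below at 8 arrays to 71 and 70 at 9.

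The border of this description is narrow. STUB1, a ubiquitin ligase that works with chaperones, lay just inside it, with a gap of 0.00093 (log2) between the lowest hormone and the highest placebo array, while AUH, an enzyme of leucine breakdown, lay just outside with an overlap of 0.00064. The median gap was 0.06 above and 0.05 below. At the other end KALRN, at 0.31, CYB5B, at 0.27, and a probe set of RHOQ, at 0.25, had the widest gaps among named genes. STUB1 was chosen after their values were seen. When 8 of 9 arrays lay outside, the third estrogen array was the exception more often than any other array, in 56 of 251 probe sets above and 52 of 300 below.

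CNTNAP2 had the lowest p of all probe sets. It codes for a neurexin-family adhesion protein that gathers potassium channels along the axon. Its placebo arrays read 7.99, 7.77 and 8.09 (log2 intensity), its estrogen arrays 9.57, 9.25 and 9.11, its combined arrays 9.18, 9.31 and 9.41 and its progesterone arrays 9.29, 8.70 and 8.33. The groups did not overlap, and the second and the third progesterone arrays came closest to placebo. The hormone mean was 2.26-fold the placebo mean, a log2 difference of 1.18 ± 0.19 (SE, 9 against 3 arrays). Its adjusted p by limma was 0.9999. The log2 difference stayed between 1.09 and 1.25 when any 1 array was left out. A brighter probe set of CNTNAP2 gave 0.97 ± 0.34 with overlapping groups, and 2 others gave 0.04 and 0.11. With the arrays aligned on their medians, CNTNAP2 no longer had all 9 arrays outside the placebo range.

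KALRN, which shapes dendritic spines, read 5.99, 6.86 and 6.83 under placebo. Its estrogen arrays read 7.29, 7.33 and 7.27, the combined arrays 7.30, 7.46 and 7.86, and the progesterone arrays 7.17, 7.61 and 7.63. All 9 stood above the highest placebo array, with a log2 difference of 0.87 ± 0.20 (SE). The first placebo array was the lowest by a wide margin, and without it the difference was 0.59. A second probe set of KALRN, brighter than this one, differed by 0.10 ± 0.13.

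LIN7A is a scaffold protein that holds receptors and channels at synapses. It read 5.58, 7.01 and 6.95 under placebo and from 7.11 to 8.30 under hormone, with a median of 7.55 and a log2 difference of 1.03 ± 0.29. Without the first placebo array the difference was 0.56. Of 5 other probe sets of LIN7A, the brightest, at a mean of 12.9, differed by 0.03 ± 0.10, while 2 others differed by 1.26 ± 0.35 and 0.60 ± 0.27.

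TOB2, of a family of proteins that restrain cell division, had the largest difference among the named genes outside the placebo range. Its placebo arrays read 5.42, 5.52 and 4.36, its estrogen arrays 7.19, 6.38 and 7.36, its combined arrays 7.43, 5.74 and 6.37 and its progesterone arrays 7.27, 7.31 and 7.16. All 9 hormone arrays were higher, and the second combined array was nearest to placebo. The log2 difference was 1.81 ± 0.34, and 1.44 without the third placebo array. All 3 placebo values lie under the filter on dim probe sets of 6.31, which TOB2 passed through its hormone arrays, and its signal over background is not known, so no fold is given. A brighter probe set of TOB2 differed by 0.29 ± 0.21, and another by -0.0027 ± 0.18.

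**Figure D2:**
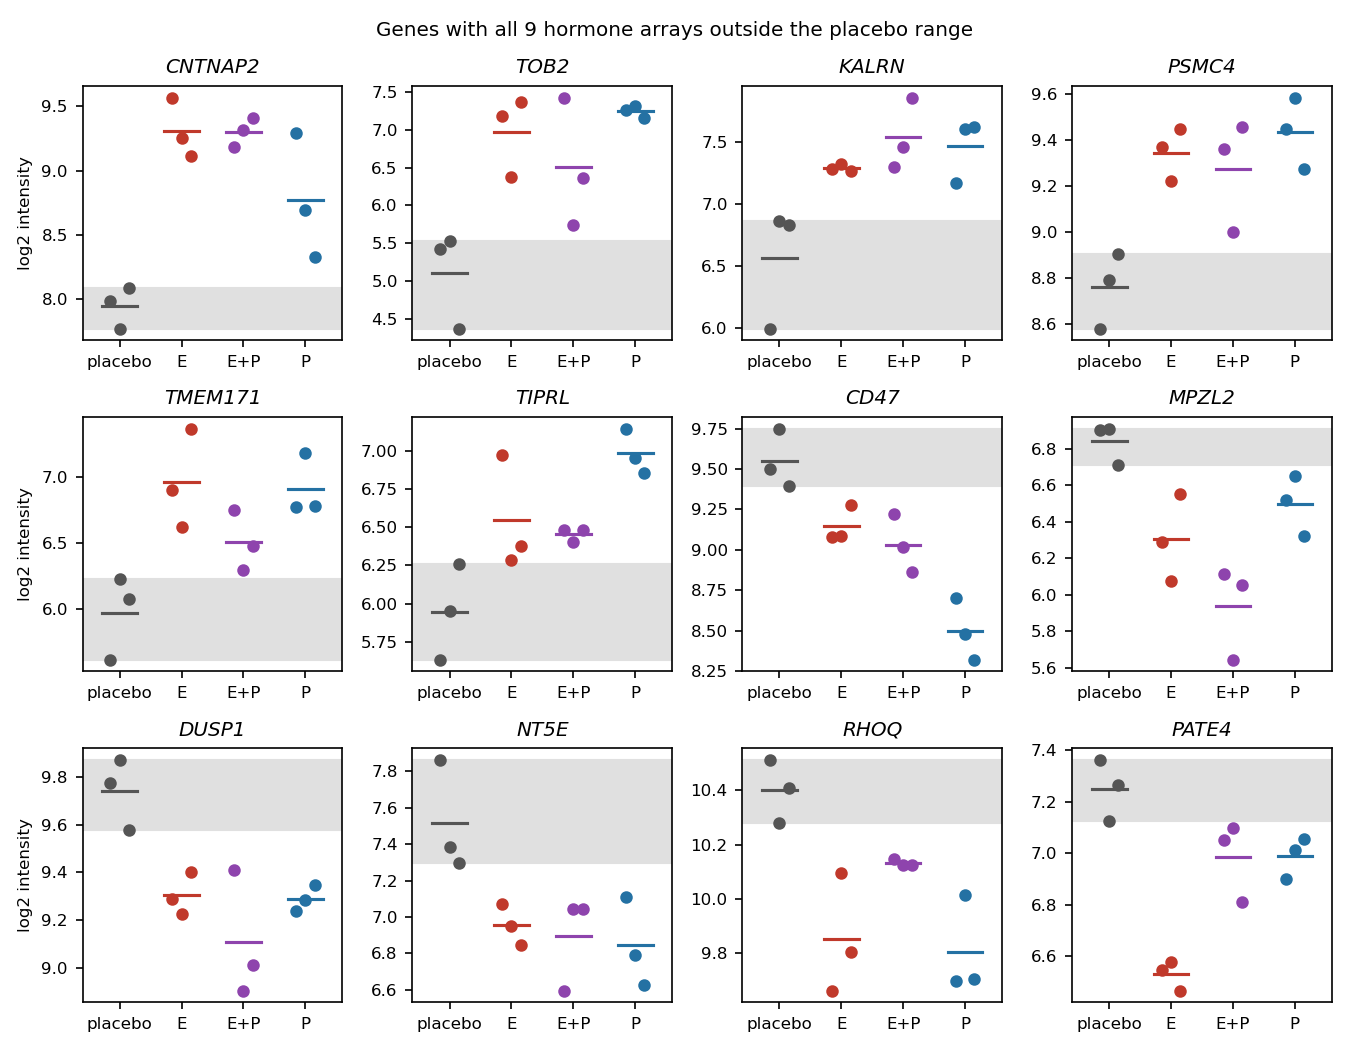
Each panel shows 1 gene, with a point for each array, a line for each group mean and the placebo range shaded; the vertical axis is log2 intensity and the groups are placebo, estrogen (E), estrogen plus progesterone (E+P) and progesterone (P). The 6 higher and 6 lower named genes with the lowest p among those with all 9 hormone arrays outside the placebo range are drawn, so no point of a hormone array falls in the shaded band.

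PSMC4, an ATPase of the proteasome base that unfolds proteins before they are cut, read 8.58, 8.79 and 8.90 under placebo and from 8.999 to 9.58 under hormone (median 9.37). Its log2 difference was 0.59 ± 0.14, with 0.59 for estrogen, 0.51 for the combination and 0.68 for progesterone. The 2 other tested probe sets of PSMC4 gave 0.15 and -0.15. TRIM63, a ubiquitin ligase known from muscle wasting, differed by 0.76 ± 0.20 from placebo arrays at 6.30, 5.90 and 6.60. RPS6KB1, the S6 kinase that mTOR activates to promote translation, read 7.76, 8.44 and 8.22 under placebo and from 8.53 to 8.87 under hormone, a difference of 0.58 ± 0.15. Its 9 hormone arrays lay within a narrower band than the 3 placebo arrays. Both other tested probe sets of RPS6KB1 went the other way (-0.12 and -0.08).

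TIPRL, which regulates PP2A-type phosphatases, had the log2 differences 0.60 under estrogen, 0.51 under the combination and 1.03 under progesterone. All 3 placebo arrays were under the filter for TIPRL (5.63, 5.95 and 6.26), as they were for TMEM171. GTPBP6, a mitochondrial GTP-binding protein, differed by 0.67 ± 0.17, and CYB5B, a cytochrome b5 of the outer mitochondrial membrane, by 0.79 ± 0.21. The 3 other tested probe sets of CYB5B went the other way, at -0.02, -0.12 and -0.04. WDR36, a nucleolar protein of ribosomal RNA processing, differed by 0.55 ± 0.16, but by -0.09 ± 0.20 on its other tested probe set. P3H1, which modifies prolines of collagen, had placebo values of 6.89, 7.20 and 7.19 and hormone values from 7.39 to 7.74. Its difference was 0.46 ± 0.12, small beside TOB2 but with a gap of 0.19 between the groups. AIG1, a membrane-bound lipid hydrolase, differed by 0.68 ± 0.19, but by -0.30 ± 0.14 on its other tested probe set. TMEM171 differed by 0.82 ± 0.19 and FAM241B by 0.44 ± 0.13.

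**Figure D3:**
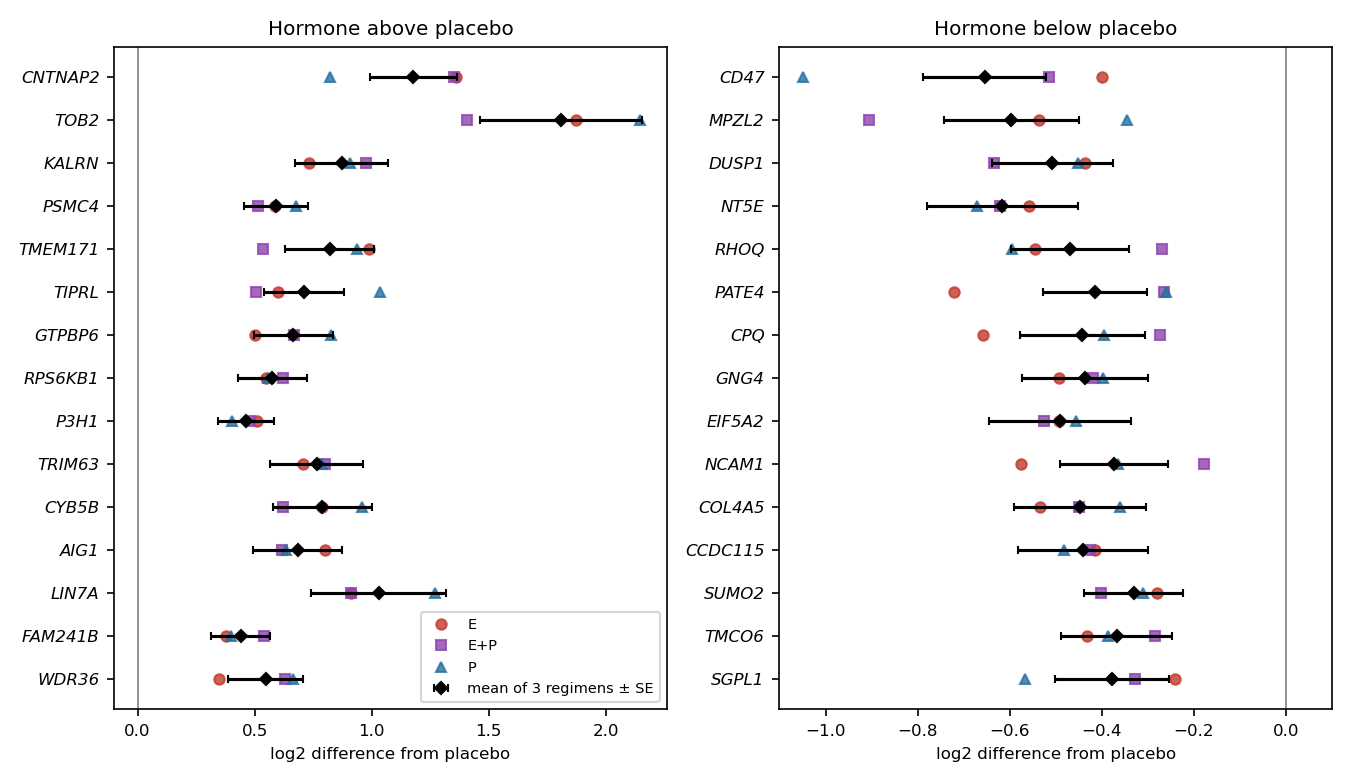
Log2 differences from placebo of the 15 higher genes (left) and 15 lower genes (right) with the lowest p among those with all 9 hormone arrays outside the placebo range. Circles, squares and triangles are the estrogen, combined and progesterone means, and diamonds with bars the mean of the 3 regimens ± SE of the limma fit. For CD47 the regimens spread from -0.40 to -1.05, for EIF5A2 from -0.46 to -0.53.

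Lower genes at the cell surface and in the matrix were led by CD47, the membrane protein that restrains phagocytosis. Placebo arrays read 9.50, 9.75 and 9.39 and hormone arrays from 8.32 to 9.28, with a median of 9.02. The log2 difference was -0.65 ± 0.13, made of -0.40 under estrogen, -0.52 under the combination and -1.05 under progesterone, with the 3 progesterone arrays below the other 6. The F test between regimens gave CD47 an unadjusted p of 0.00463, not past the threshold after adjustment. The 3 other tested probe sets of CD47 also had lower means, at -0.09, -0.44 and -0.94.

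NT5E, the surface enzyme that makes adenosine from AMP, read 7.86, 7.39 and 7.30 under placebo and from 6.60 to 7.11 under hormone. Its 3 regimens were close together, at -0.56, -0.62 and -0.67, with a mean of -0.62 ± 0.16. Another tested probe set of NT5E differed by -0.07 ± 0.15. MPZL2, an epithelial adhesion protein, differed by -0.60 ± 0.15 and most under the combination (-0.91). COL4A5, a chain of basement membrane collagen, differed by -0.45 ± 0.14 from placebo arrays at 10.23, 10.07 and 10.18. NCAM1, the neural cell adhesion molecule, differed by -0.37 ± 0.12, with -0.58 under estrogen and -0.18 under the combination. Of 9 other tested probe sets of NCAM1, 7 were lower and 2 higher, and the one with the lowest limma p, 0.123, was higher by 0.44.

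Signalling genes among the lower ones included DUSP1, a phosphatase that switches off MAP kinases and that corticosteroids induce in many cells. Placebo arrays read 9.77, 9.87 and 9.58 and hormone arrays from 8.90 to 9.41 (median 9.29). The groups were separated by 0.17, and the log2 difference was -0.51 ± 0.13, at -0.44, -0.63 and -0.45 in the 3 regimens. RHOQ, a small GTPase of membrane traffic, had all 9 hormone arrays below placebo on 2 probe sets, at -0.47 ± 0.13 and -0.86. Other tested probe sets of RHOQ differed by -0.28, -0.10 and -0.17, without all 9 arrays below. GNG4, a gamma subunit of G proteins, differed by -0.44 ± 0.14, and SGPL1, which breaks down sphingosine 1-phosphate, by -0.38 ± 0.12.

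EIF5A2, a translation factor, read 7.72, 7.74 and 7.70 under placebo, the tightest of these groups, and from 6.95 to 7.64 under hormone (-0.49 ± 0.15). Other tested probe sets of EIF5A2 differed by -0.17 and 0.05. SUMO2, the small protein tag attached to many nuclear proteins, read 11.29, 11.37 and 11.36 under placebo and from 10.87 to 11.18 under hormone (-0.33 ± 0.11). CCDC115, needed to assemble the proton pump of lysosomes, differed by -0.44 ± 0.14. CPQ, a secreted peptidase, differed by -0.44 ± 0.14, TMCO6 by -0.37 ± 0.12, PATE4 by -0.42 ± 0.11 and FBXW8, a subunit of a cullin ubiquitin ligase, by -0.44 ± 0.19. Other tested probe sets of CPQ differed by 0.12, -0.08, -0.02 and -0.0030, and another of TMCO6 by 0.29.

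Other probe sets of the same genes often went the other way. The 75 named genes with all 9 arrays outside had 111 further tested probe sets, on 52 of the genes, of which 69 went the same way with a median change of 0.06 in that direction. For the higher genes 20 of 41 went the same way, and for the lower genes 49 of 70. Over all probe sets tested the hormone mean was above placebo for 45.5% and below for 54.5%. An unadjusted p under 0.05 was reached by 6 of the 111 in the same direction (CD47, CNTNAP2, COL2A1, S100A16 and LIN7A on 2) and by 1, CXXC5, in the other. COL2A1, S100A16 and CXXC5 were chosen after their values were seen.

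The regimens were also read one by one. All 3 regimen means lay above the placebo mean for 20.5% of probe sets and below it for 24.6%. A limma p under 0.05 in each of the 3 regimens, in 1 direction, was found for 86 probe sets (0.326%), 64 above (0.243%) and 22 below (0.0834%). With the arrays aligned on their medians these were 38 above and 21 below, and without the third placebo array 316 and 64. The 3 contrasts share the placebo arrays, so these are counts and not independent agreement. Of the 64 above, 35 (54.7%) were among the 71 with all 9 arrays above, 49.3% of those; of the 22 below, 10 (45.5%) were among the 70, or 14.3%. Within the 141 probe sets, progesterone had the largest of the 3 differences in 35 of 71 above and 33 of 70 below.

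Differences between the regimens were also tested. The regimen means do not use the placebo arrays, but the estimate of spread and the normalization used all 12 arrays. The F test between the 3 regimens called 25 probe sets (0.0948%), and in all 25 progesterone stood apart from the other 2 regimens, highest in 21 and lowest in 4. None of the 25 was among the 141, which are 0.534% of all tested, so with 25 probe sets nothing can be read from that. The progesterone arrays also stood apart in other measures: the EF1A 3′ minus 5′ log2 signal was -0.37, -0.31 and -0.33 on them and from -0.08 to 0.74 on the other 9 arrays, and the second principal component was at -14.1, -46.3 and -54.5 against 0.50 to 20.4. Their part in these calls, and in the larger differences under progesterone, was not tested. ANKRD11, a chromatin regulator, is an example: its hormone minus placebo difference of 0.84 ± 0.17 was made of 0.14 under estrogen, 0.41 under the combination and 1.96 under progesterone. Its limma p was 0.000377 but its two-sided exact permutation p, over all 220 choices of 3 of the 12 arrays, was 0.155, and its hormone and placebo arrays overlapped. The count of 25 fell to 0 when the second progesterone array was left out.

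Gene lists were described on the brightest tested probe set of each of 9305 genes, of which 43.9% were higher under hormone, with a median log2 difference of -0.02. In this set 3.72% had an unadjusted p under 0.05 (2.06% above and 1.66% below) and 0.408% had all 9 arrays outside the placebo range (0.204% on each side). No member of any list passed the test, and the median of 15 of the 27 lists changed sign when some 1 array was left out.

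No gene of the serotonin system passed the test. Of 7 measured genes that make, move or break down serotonin, 4 were higher and 3 lower, with a median of 0.07 (-0.11 without the first progesterone array). None of the 7 had an unadjusted p under 0.05. TPH2 read from 4.66 to 8.85 in the hormone arrays, wider than the placebo range on both ends, and its mean difference of 0.10 ± 0.53 (95% confidence interval from -1.06 to 1.26) joined 0.01 under estrogen, 1.06 under the combination and -0.77 under progesterone. MAOA, which breaks serotonin down, differed by 0.12 ± 0.17, and SPR, an enzyme that makes the cofactor of TPH2, by -0.35 ± 0.20. Markers of serotonin neurons were lower in 6 of 7, with a median of -0.07 that turned to 0.03 without the second placebo array, and with FEV, their transcription factor, at -0.22 ± 0.21. Without the second placebo array FEV was at 0.03, so its direction rested on that array.

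Steroid receptors and their coregulators were higher in 5 of 11 (median -0.0039). ESR2, estrogen receptor beta, differed by 0.22 ± 0.25, and by 0.02 without the third placebo array. ESR1, PGR and FKBP5, with HTR1A, were below the filter on dim probe sets, with mean log2 values of 4.97, 2.82, 4.21 and 5.07, and were not tested. Genes known to respond to estrogen were lower in 10 of 14 (median -0.08; leaving out the first placebo array gave -0.0082 and leaving out the second gave -0.15), among them IGFBP4 (-0.41 ± 0.16) and GREB1 (-0.37 ± 0.17), both at an unadjusted p under 0.05. GREB1 is a classical estrogen-induced gene of breast cells. Targets of progestins and corticosteroids were higher in 8 of 14 (median 0.05), with DUSP1 the only measured member with all 9 arrays outside the placebo range.

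Immediate early genes, which neurons switch on within minutes of activity, were lower in 6 of 9 (median -0.22). DUSP1 and NR4A1 (-0.43 ± 0.18) had an unadjusted p under 0.05. The median was -0.04 without the second placebo array and -0.26 without the first. Genes of the CRH system, listed together with the peptide NPY, were split 3 and 3 (median -0.03).

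Synaptic adhesion genes were higher in 8 of 15 (median 0.03), among them LRRTM1 (0.52 ± 0.20), a postsynaptic adhesion protein, with 0.86 under estrogen and 0.08 under progesterone. Without the first placebo array LRRTM1 stood at 0.83. Synaptic vesicle genes were split 5 and 5 (median -0.0039). Glutamate receptors were higher in 3 of 7 (median -0.12), with GRID1, a delta receptor, at -0.64 ± 0.28. GABA and glycine receptors were higher in 7 of 7 on the mean of the regimens (median 0.21) with 0 at an unadjusted p under 0.05. All 3 regimen means lay above placebo in only 3 of the 7, and in 1721 of all 9305 genes. GLRA2, a glycine receptor subunit, was nearest at 0.40 ± 0.19, and the list median ran from 0.11 without the first placebo array to 0.36 without the third.

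**Figure D4:**
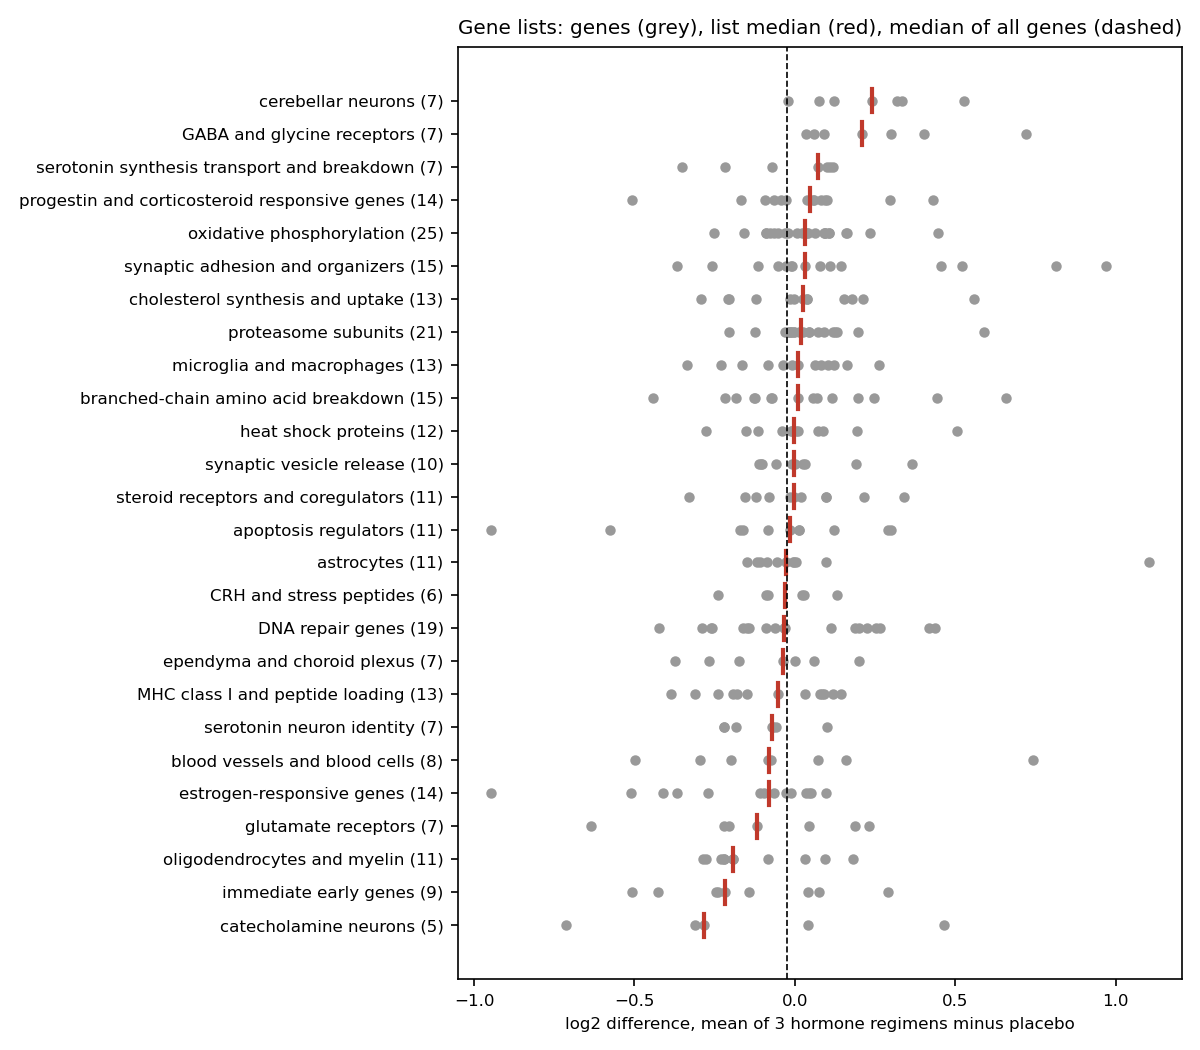
Log2 difference of the mean of the 3 hormone regimens from placebo for each measured gene (grey points) of the gene lists, with the number of genes in brackets, the list median in red and the median of all genes as a dashed line. The list medians run from -0.28 for catecholamine neurons (-0.11 without the third progesterone array) to 0.24 for cerebellar neurons (0.06 without the second estrogen array). GABA and glycine receptors are the list with all its points above 0, as means of the 3 regimens. Of its 7 genes, 3 lay above placebo under each regimen.

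Proteasome subunits were higher in 12 of 21 (median 0.02), and on these probe sets PSMC4 was the only one with all 9 arrays outside the placebo range. PSMA7 had all 9 above on another probe set (0.39 ± 0.12) and stood at -0.0010 on its brightest; it was chosen after its values were seen. Apoptosis regulators were higher in 5 of 11 (median -0.01), where BIRC2, an inhibitor of apoptosis, had all 9 arrays below placebo at a difference of -0.16 ± 0.10. With the arrays aligned on their medians, BIRC2 no longer had all 9 outside. Other tested probe sets of BIRC2 differed by 0.30, 0.13 and -0.09. BCL2, which blocks apoptosis, differed by -0.95 ± 0.55, with 0.22 under estrogen and -1.61 under progesterone. DNA repair genes were higher in 8 of 19 (median -0.03), and UNG, which removes uracil from DNA, differed by 0.44 ± 0.19. Oxidative phosphorylation genes were higher in 16 of 25 (median 0.03), heat shock proteins in 6 of 12 (-0.0020), cholesterol genes in 7 of 13 (0.03) and genes of branched-chain amino acid breakdown in 8 of 15 (0.01). In the last list ALDH6A1 differed by 0.66 ± 0.22, and by 0.39 without the first placebo array. Class I histocompatibility and peptide loading genes were higher in 6 of 13 (median -0.05), with PSMB10, an immunoproteasome subunit, at -0.38 ± 0.16.

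No marker of the other cell types in the block passed the test. Oligodendrocyte and myelin genes were lower in 8 of 11 (median -0.19, and -0.08 without the first placebo array), with 0 at an unadjusted p under 0.05; their summed intensity ran from 30744 to 33903 under placebo and from 26602 to 35102 under hormone. Astrocyte genes were lower in 8 of 11 (median -0.03). The exception in size, SLC1A2, the main glutamate transporter of astrocytes, differed by 1.10 ± 0.54, with the first placebo array at 8.75 and the other 2 at 12.01 and 12.04. Without that array the difference was 0.01. Microglia genes were higher in 7 of 13 (median 0.01) and ependymal and choroid plexus genes in 3 of 7 (-0.04).

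Cerebellar neuron markers, which would mark tissue from beside the block, were higher in 6 of 7 (median 0.24, and 0.06 without the second estrogen array). Their summed intensity ran from 2111 to 2582 under placebo and from 2024 to 4610 under hormone. CA8, a calcium-signalling protein abundant in Purkinje cells, differed by 0.53 ± 0.16, with overlapping groups. Catecholamine neuron markers were lower in 3 of 5 (median -0.28, and -0.11 without the third progesterone array), where SLC6A3, the dopamine transporter, went from -0.71 ± 0.38 to -0.08 without the first placebo array. Markers of vessels and blood were lower in 5 of 8 (median -0.08), with ALAS2, an enzyme of red blood cells, at 0.74 ± 0.37. The summed levels of the cerebellar, myelin and astrocyte lists overlapped between placebo and hormone arrays, and the part of these cell types in the differences above was not tested.

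The description by ranges depended on the 3 placebo arrays. Without the third placebo array, 443 probe sets had all 9 hormone arrays above and 515 below the range of the other 2. Without the first these counts were 249 and 192, and without the second 239 and 296. A range of 2 arrays is narrower by construction. Leaving out 1 hormone array gave from 83 to 127 above and from 93 to 122 below, the highest of both without the third estrogen array.

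**Figure D5:**
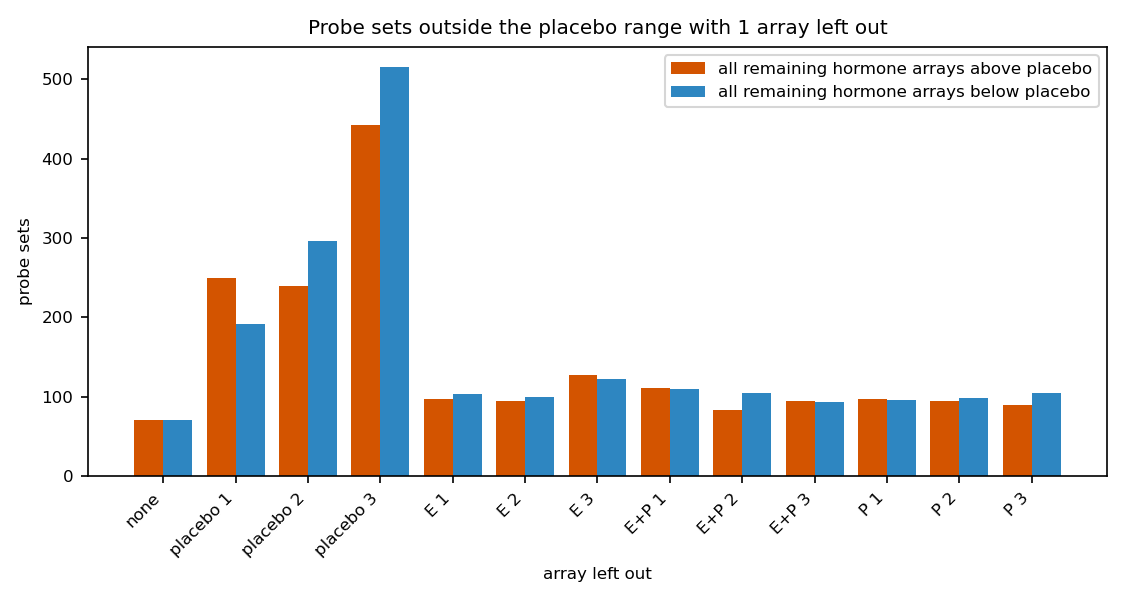
Number of probe sets with all remaining hormone arrays above (orange) or below (blue) the remaining placebo arrays when the array named on the horizontal axis is left out, with none left out at the far left. The bars stand at 71 and 70 with all arrays and at 443 and 515 without the third placebo array.

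The 141 probe sets were followed over 3 scalings (quantile normalization, alignment of medians, and the values as deposited). That 0 changed sign on either side follows from their choice. The differences nearest 0 were 0.12 above and -0.15 below, and the median difference of all probe sets moved only between -0.02 and -0.06. Those that kept all 9 arrays outside under each scaling numbered 19 above and 23 below. Named genes among them were TOB2, KALRN, GTPBP6, P3H1, TRIM63, CYB5B, AIG1 and ACTL6B above. Below they were NT5E, CPQ, GNG4, EIF5A2, SUMO2, FBXW8, RHOQ (the probe set at -0.86), B3GNT2, S100A16, ATXN7, PHLDA1 and CYTH4. ACTL6B, a subunit of the chromatin remodeller of mature neurons, differed by 0.45, and B3GNT2, which extends sugar chains, by -0.66. ACTL6B and the last 5 of the lower genes were chosen after their values were seen.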

How the data were processed

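Biotin-labelled RNA of 12 monkeys was measured on Affymetrix rhesus arrays. The authors deposited 1 table of signal intensity per probe set and array; the sources used here do not give the summary method, and the 2% trimmed mean is 200.0 on each array. Of 52865 probe sets, 99 controls were left out. Intensities were floored at the 5th percentile (4.99), taken as log2 and quantile normalized because array medians (log2 6.15 to 6.62) differed by more than 0.15. The upper 50% by mean (at least log2 6.31) were tested, 26383 probe sets, of which 15020 carry 1 symbol, for 9305 genes, 918 a locus number, 224 several symbols and 10221 none. Levels of different probe sets are not comparable, and no sequences or coordinates are given.

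Limma 3.58.1 in R 4.3.3 fitted 4 group means; the contrast was the mean of the 3 hormone groups minus placebo, with Benjamini-Hochberg adjustment over all 26383 and a threshold of 0.05. A moderated F test compared the 3 regimens. On simulated data with 50 probe sets changed at each size, 10, 68, 84 and 94% were called at log2 differences of 0.5, 1, 1.5 and 2. The simulated noise was independent between arrays, at the spread within groups. It lacked the structure shared by the real arrays, whose first principal component held 23.5%. These shares also depend on the number of probe sets changed, so they need not hold for the measured arrays. The number of arrays limits the precision. P-values measure the spread between animals.

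Named genes were those with 1 symbol: in each direction 15 with the lowest p and 5 with the largest smallest regimen difference among probe sets with all 9 arrays outside, 9 genes of serotonin and steroid action, up to 3 of lowest p per list, and 5 of lowest F-test p among probe sets with an unadjusted p under 0.05 against placebo. The comparison, the members and the gene lists were chosen with earlier results of these data known. Alternatives were other scalings, filters, array weights, a replicate block, 1 probe set per gene, and leaving out arrays or regimens. Figures were drawn with matplotlib 3.10.9.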

Additional observations from a re-analysis of the deposited data

Results flagged for a closer look

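The response differed between the regimens by limma's F test in 13 genes with 1 symbol, of which the 5 with the lowest F-test p among probe sets at an unadjusted p under 0.05 against placebo are described. Progesterone was the lowest regimen in 3 of the other genes (LPCAT4, ELFN2 and EXOC3L1, chosen after their values were seen). TM7SF3, a membrane protein, had an adjusted p of 0.00839, with log2 differences from placebo of 0.12 under estrogen, -0.02 under the combination and 1.90 under progesterone. PPM1A, a protein phosphatase, also had an adjusted p of 0.00839, with -0.07, 0.08 and 2.18. ANKRD11 had an adjusted p of 0.00967, with 0.14, 0.41 and 1.96. EXTL2, an enzyme of heparan sulfate synthesis, had an adjusted p of 0.0204, with -0.05, -0.11 and 1.11. WASHC4, a subunit of an endosomal actin-regulating complex, had an adjusted p of 0.0212, with 0.01, 0.19 and 1.72. A second probe set of WASHC4, not under 0.05 against placebo by limma, had an F-test adjusted p of 0.00839, with -0.45, -0.30 and 1.94. The placebo, estrogen and combined means of that probe set (6.16, 5.71 and 5.86) lay under the filter on dim probe sets. It passed the filter through its progesterone arrays, at a mean of 8.10. In each of the 5, the 3 progesterone arrays lay above all 9 others, and the exact permutation p for hormone against placebo ran from 0.155 for ANKRD11 to 0.436 for EXTL2. No such call was left without the second progesterone array.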

How the results depend on the processing

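Limma called 0 probe sets in every setting that left out 1 array, with the replicate block, and in the other settings except the one with no filter on dim probe sets, where 0 were called above and 2 below. Both were unnamed. The range counts, 71 above and 70 below, and the counts at an unadjusted p under 0.05 in each regimen, 64 above and 22 below, with the F test at 25, moved as follows. With arrays aligned on their medians, 39 probe sets lay above, 38 shared a p above, and F called 15. Without the filter the range counts were 144 and 142, and the shared counts 123 and 85. With a filter at the 75th percentile they were 37 and 37, and 30 and 14, with F at 5. With the brightest probe set per gene they were 19 and 19, and 13 and 10, with F at 2. Array weights gave 38 shared below. Without the first placebo, estrogen and combined arrays, 496 lay above and 445 below. Without the estrogen regimen the counts were 253 and 280, and 140 and 88; without the combined regimen 208 and 257, and 112 and 73; without the progesterone regimen 224 and 247, and 106 and 67. Leaving out 1 array gave range counts from 83 to 443 above and from 93 to 515 below, shared counts from 38 to 316 and from 10 to 64, and F from 0 to 38. Replicate numbers were not taken as pairs. Deviations of same-numbered hormone and placebo arrays correlated above 0.1 in 4 of 9 cases (all 3 of the combined regimen among them), and in 5 of 18 others. Same-numbered correlations ran from 0.02 to 0.28 for estrogen, from 0.10 to 0.27 for the combination and from -0.24 to -0.11 for progesterone. The others ran from -0.25 to 0.31. These values do not settle whether the numbers mark pairs. The replicate block gave 71 and 26 shared and 18 by F. The cause of these moves was not tested, apart from fewer probe sets or arrays entering.

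Of the named genes, TPH2 changed sign with array weights (-0.12), without the 3 arrays that stood apart (-0.37), without the combined regimen (-0.38), and when 1 array was left out (-0.28 to 0.40). Leaving out 1 array also changed the sign of DBH (-0.25 to 0.96), FGFR3 (-0.22 to 0.0015), NCOA3 (-0.0219 to 0.53), GABRA3 (-0.10 to 1.18), FEV (-0.39 to 0.0340) and SYT4 (-0.22 to 0.0038). Without the 3 arrays that stood apart, FGFR3 was at 0.0320, CRHR2 at -0.0441, CADM1 at -0.0898, HSPA4 at -0.0335, SLC1A2 at -0.0352 and PAK3 at -0.0112. Without the progesterone regimen, EXTL2 was at -0.0771, PDIA3 at 0.0016, CPLX2 at 0.17 and CRHR1 at 0.0553. No signal over background was given for the probe sets, so dim ones are limited by the filter alone.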

Other observations

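Of the 1204 probe sets at an unadjusted limma p under 0.05 for hormone against placebo, 723 were higher and 481 lower, whereas over all 26383 tested 45.5% had a higher and 54.5% a lower hormone mean. Among the 71 probe sets with all 9 hormone arrays above placebo, 34 had no gene name and 5 a locus number, and among the 70 below, 23 and 3.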
